A study of Homo sapiens with 34 samples.

Results

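The catecholamine genes described here are the 10 genes TH, DDC, DBH, PNMT, GCH1, SLC18A1, SLC18A2, SLC6A2, CHGA and CHGB. They were taken by name from the 19970 protein-coding genes annotated on chromosomes 1 to 22 and X. The cells were KELLY, an established line from a human neuroblastoma in which MYCN is amplified, with a hairpin RNA (shRNA) against the transcriptional co-repressor RUNX1T1 that doxycycline switches on. The cells received DMSO or doxycycline for 72 h. Histone marks were mapped by chromatin immunoprecipitation and sequencing (ChIP-seq) of H3K4me1, H3K4me2, H3K4me3, H3K27ac and H3K27me3, which gave 30 peak lists with 3 replicates for each mark and treatment, and the comparison asks how depletion of RUNX1T1 changes these marks. All samples were of 1 line with the same hairpin construct, and only the knockdown cells received doxycycline, so hairpin induction and the drug itself cannot be told apart. Peak lists do not measure the RUNX1T1 transcript, so the knockdown was not checked here.

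Noradrenaline is made from tyrosine in steps: tyrosine hydroxylase (TH) makes DOPA, DOPA decarboxylase (DDC) makes dopamine, and dopamine beta-hydroxylase (DBH) makes noradrenaline inside the vesicle. PNMT methylates noradrenaline to adrenaline in chromaffin cells of the adrenal medulla, and GCH1 starts the synthesis of tetrahydrobiopterin (BH4), the cofactor that TH needs. The vesicular transporters SLC18A1 (VMAT1) and SLC18A2 (VMAT2) load amines into vesicles, SLC6A2 takes noradrenaline back up from outside the cell, and the chromogranins CHGA and CHGB form the core of the storage granule. Neuroblastoma arises from the sympathoadrenal lineage, and catecholamine breakdown products in urine are used in its diagnosis. H3K4me3 and H3K27ac mark active promoters, H3K4me1 marks promoter flanks and enhancers, and H3K27me3 is the mark of Polycomb repression.

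The sequence before the start site is shown for the 4 genes that had an entry in the RefSeq table of promoters, because the peaks described here were scored around these starts. Each run is 250 bases long, ends at the base before the RefSeq start, and is written 5′ to 3′ on the strand of the gene in build GRCh38.p14. DBH is chr9:133636113-133636362 on the plus strand, SLC18A2 is chr10:117240864-117241113 on the plus strand and CHGA is chr14:92922900-92923149 on the plus strand. DDC has an outer start, chr7:50565406-50565655, and an inner start, chr7:50561072-50561321, both on the minus strand. TH, PNMT, GCH1, SLC18A1, SLC6A2 and CHGB were not matched. Capitals mark 6 motifs searched on both strands: the cyclic AMP response element TGACGTCA, the AP-1 site TGANTCA, the EGR1 site GCGNGGGCG, the GC box GGGCGG (which can overlap an EGR1 site), the TATA box TATANA and the homeodomain core ATTA.
DBH: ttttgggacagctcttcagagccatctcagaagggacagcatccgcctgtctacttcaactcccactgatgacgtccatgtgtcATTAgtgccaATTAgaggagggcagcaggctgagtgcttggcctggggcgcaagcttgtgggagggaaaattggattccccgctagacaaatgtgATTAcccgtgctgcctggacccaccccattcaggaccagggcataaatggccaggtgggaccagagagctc
DDC outer start: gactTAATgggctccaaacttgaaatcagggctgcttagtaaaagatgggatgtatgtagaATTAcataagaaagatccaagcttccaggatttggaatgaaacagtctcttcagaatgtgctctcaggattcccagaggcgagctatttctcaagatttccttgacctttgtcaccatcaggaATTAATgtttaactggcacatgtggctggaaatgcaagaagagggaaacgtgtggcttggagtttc
DDC inner start: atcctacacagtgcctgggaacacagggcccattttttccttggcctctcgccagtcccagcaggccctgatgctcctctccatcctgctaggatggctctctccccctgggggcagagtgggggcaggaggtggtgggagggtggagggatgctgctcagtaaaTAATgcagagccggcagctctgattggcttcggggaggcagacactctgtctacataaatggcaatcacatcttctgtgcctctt
SLC18A2: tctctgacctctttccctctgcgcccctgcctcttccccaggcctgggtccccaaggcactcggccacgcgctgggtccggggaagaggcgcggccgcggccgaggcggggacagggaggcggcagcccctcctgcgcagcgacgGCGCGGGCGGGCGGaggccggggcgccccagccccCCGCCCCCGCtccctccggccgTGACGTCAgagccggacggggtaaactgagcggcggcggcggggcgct
CHGA: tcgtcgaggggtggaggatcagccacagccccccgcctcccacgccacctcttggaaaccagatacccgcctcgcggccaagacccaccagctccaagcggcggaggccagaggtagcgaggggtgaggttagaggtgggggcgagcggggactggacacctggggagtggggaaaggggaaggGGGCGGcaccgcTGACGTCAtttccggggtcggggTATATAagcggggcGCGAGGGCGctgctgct

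The 250 bases differed in composition. SLC18A2 held 78.8% G and C with 33 CpG pairs and CHGA 68.8% with 21, beside medians of 58.0% and 11 over the 35116 RefSeq promoters of the same length. DBH had 55.6% and 5 CpG pairs, the inner start of DDC 58.0% and 3, and the outer start of DDC 42.4% and 2. The cyclic AMP response element was found in SLC18A2 and CHGA, at 48 to 41 and 54 to 47 bases before the start, and in 1.65% of all promoters. The same 2 genes held an EGR1 site (8.41% of all promoters) and a GC box (42.6%). CHGA also held a TATA box, 31 to 26 bases before its start (17.7%). DBH and both DDC starts held the homeodomain core (47.4%). It began 166, 156 and 71 bases before the start in DBH. In DDC it began 246, 189, 66 and 64 bases before the outer start and 85 before the inner start. No AP-1 site was found in these windows (6.57%). An E-box, CANNTG, was not capitalised; it was found in DBH, CHGA and 1 DDC start and in 61.8% of all promoters. A match describes the letters in these windows and is not a measured binding site.

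Depth differed by treatment in the file headers. The read number to which the peak caller scaled, the smaller of ChIP and input, was 71.9 to 81.1 M in the DMSO lists and 57.0 to 63.4 M in the doxycycline lists, so it did not overlap and cannot be told apart from the treatment. Lists held 88001 to 147426 peaks for H3K4me1, 51860 to 88427 for H3K4me2, 23801 to 26592 for H3K4me3, 48171 to 71603 for H3K27ac and 56926 to 157087 for H3K27me3. Nothing in the labels says that replicates came from separate cultures, so the tests measure the spread between these samples, which may be technical. The line carried the marks of its label: 7 of 7 adrenergic neuroblastoma markers, among them PHOX2A and HAND2, had an H3K27ac promoter peak in all 6 lists and 0 had H3K27me3 in all 6. Of the mesenchymal markers, 2 of 6 (FOSL2 and FN1) had H3K27ac in all 6 lists and 4 of 6 had H3K27me3. H3K27ac was at 0 of 4 blood, 0 of 2 liver and 0 of 2 muscle markers in all 6 lists and at 2 of 3 Schwann cell markers, with SOX10 at percentiles of 0.234 to 29.6.

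All 10 catecholamine genes had a peak of each active mark near a start site in both treatments. With some stricter settings, given in the closing section, members dropped out. A peak averages over the cells of a sample, so fewer marked cells and less of the mark per cell cannot be told apart. A peak of H3K4me1, H3K4me2, H3K4me3 and H3K27ac lay within 1 kb of a GENCODE start site of every one of the 10 genes in all 6 lists of each mark. Among all protein-coding genes the share was 61.4% for H3K4me1, 71.8% for H3K4me2, 71.9% for H3K4me3 and 64.2% for H3K27ac. H3K27me3 was at 0 of the 10 promoters in all 6 lists, against 20.1% of all genes. The only H3K27me3 calls at a member promoter were at DDC, in the first DMSO list and the third doxycycline list, and at PNMT, in the first and second doxycycline lists, at percentiles of 11.7 and 35.1. No member had a promoter peak in all 3 lists of one treatment while lacking it in all 3 of the other. That separation was met by 0.315% of all genes for H3K4me1, 0.0300% for H3K4me2, 0.130% for H3K4me3, 0.330% for H3K27ac and 0.190% for H3K27me3.

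The promoter peaks of 5 genes were among the widest in the genome. The width of the widest peak that met a promoter window was taken in each list, and the median of the 6 lists was ranked among all genes with a peak of that mark in all 6. For H3K4me3 the medians were 9.94 kb at DBH, 9.78 kb at CHGA, 6.83 kb at TH, 6.70 kb at SLC6A2 and 6.33 kb at DDC, beside 2.22 kb for the median gene, which placed the 5 genes at percentiles of 98.9 to 99.8. The other 5 were ordinary or narrow. GCH1 had 2.67 kb, SLC18A2 2.48 kb, CHGB 2.46 kb, PNMT 1.58 kb and SLC18A1 1.05 kb, the last at percentile 6.52. SLC18A2 and CHGB, next to each other in this order, had overlapping ranges over the 6 lists, 2.13 to 3.19 kb and 2.14 to 2.80 kb. H3K27ac divided the genes in the same way. It covered 51.3 kb at DBH, 44.3 kb at CHGA, 38.7 kb at TH, 33.4 kb at DDC and 16.8 kb at SLC6A2, with 2.32 kb for the median gene. SLC18A1 had 4.29 kb, SLC18A2 3.53 kb, CHGB 3.19 kb and GCH1 1.91 kb, and PNMT had 0.644 kb, at percentile 1.19. In H3K4me2 and in H3K4me1 the same 5 genes stood above the 90th percentile of width, joined by PNMT in H3K4me1 with 6.55 kb.

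**Figure D1:**
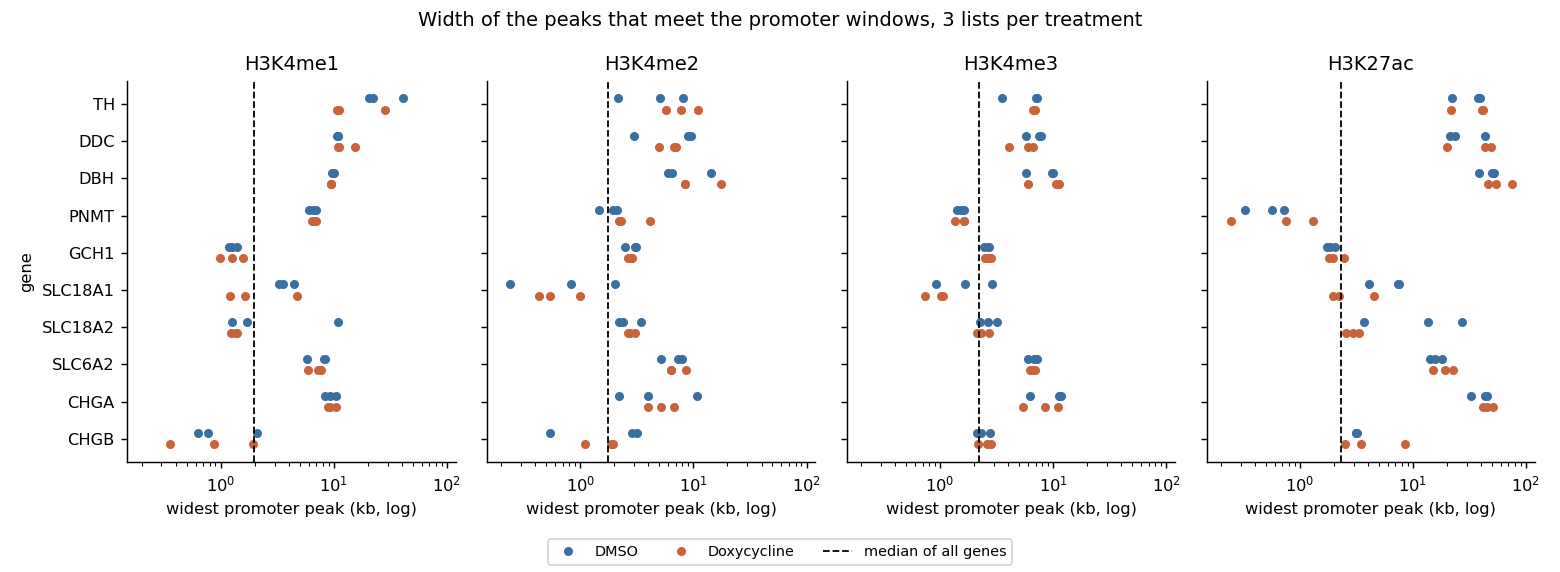
Width of the widest peak meeting the promoter windows of each gene, in kb on a log axis, with 1 point for each of the 3 lists per treatment (blue DMSO, orange doxycycline) and 1 panel per active mark. The dashed line is the median of all genes with a peak in all 6 lists. TH, DDC, DBH, SLC6A2 and CHGA lie to the right of the line in every list of H3K4me3 and H3K27ac, while PNMT lies left of it in both.

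Strength followed width only in part. The fold enrichment of the strongest promoter peak was turned into a percentile among all peaks of its own list, where 100 is the strongest, and averaged over the 6 lists. None of the 10 genes stood above the 90th percentile of genes in H3K4me2, H3K4me3 or H3K27ac by this measure. DBH, with one of the widest H3K4me3 domains, had a mean H3K4me3 percentile of 65.4 and TH one of 62.0, under the 76.003 of the median gene. SLC18A1 and PNMT, with the narrowest H3K4me3 peaks, also had the weakest, at 29.9 and 50.05. In H3K27ac the 5 genes with wide peaks were among the 6 strongest of the 10, but they stood at percentiles of only 41.9 to 75.7 of all genes. The other was CHGB, without such a wide peak, whose mean percentile of 94.0 was behind only SLC6A2 at 94.4. PNMT was lowest in strength as in width, at percentile 1.14 of all genes. In H3K4me1, where the median gene had 73.5, CHGA (97.6), DBH (97.5), TH (97.5) and SLC6A2 (96.0) were above the 90th percentile of genes in strength as in width. CHGB, at 41.4, and GCH1, at 49.0, stood at percentiles 4.66 and 9.86 of the genes. Their mean H3K4me3 percentiles were 85.2 with DMSO and 62.9 with doxycycline at CHGB, where the lists overlapped, and 94.3 and 61.2 at GCH1. Neither difference passed in limma (adjusted p of 0.369 at CHGB and 0.228 at GCH1).

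**Figure D2:**
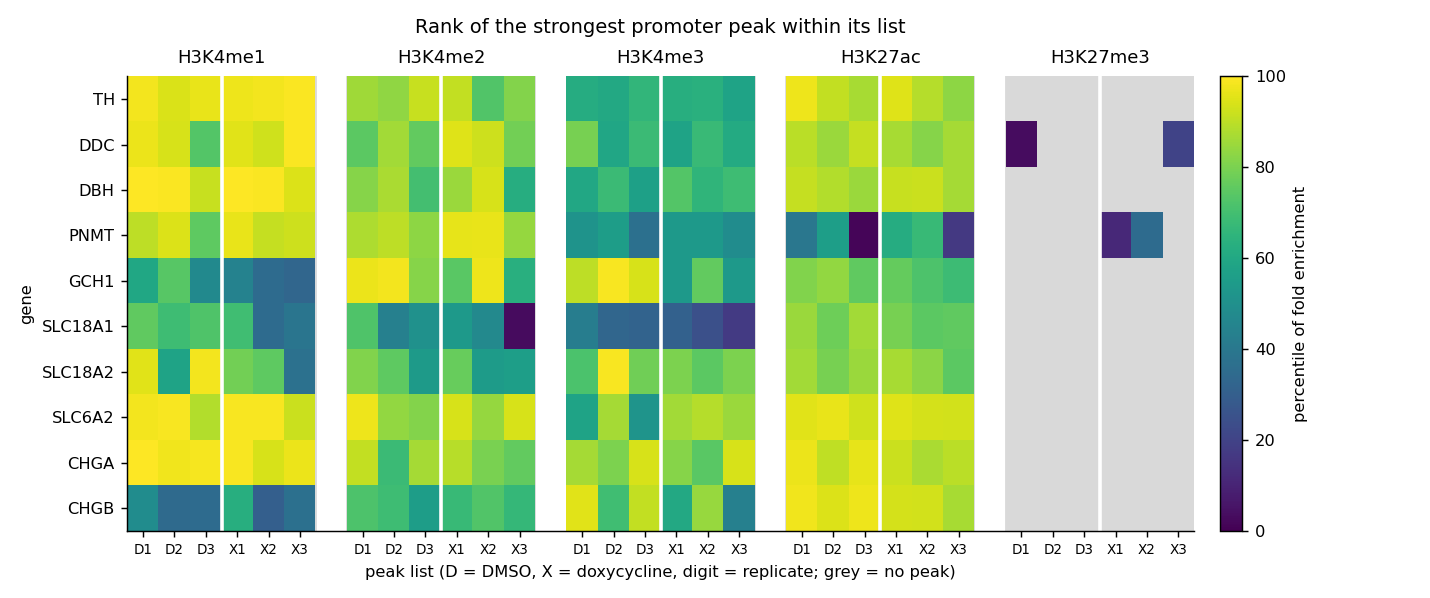
Percentile of fold enrichment of the strongest promoter peak among all peaks of its list, as colour from 0 (dark) to 100 (yellow, the strongest peak), with genes in rows and the 3 DMSO (D) and 3 doxycycline (X) lists of each mark in columns. Grey means no peak. GCH1 shows the widest gap between treatments in H3K4me3, with DMSO lists from 90.03 to 99.04 and doxycycline lists from 53.6 to 75.9.

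TH, the rate-limiting enzyme of the pathway, spans chr11:2163929-2171815 on the minus strand (GENCODE, hg38, as for all genes and regions here), 7.89 kb with 6 annotated start sites, and INS and IGF2 lie within its 50 kb window. Its H3K4me3 percentile was 61.9, 60.2 and 65.8 in the DMSO lists and 62.9, 63.6 and 57.9 with doxycycline. The groups overlapped and differed by less than the replicates. One H3K27ac peak of 21.7 to 41.5 kb crossed the whole gene in both treatments. The H3K4me1 peak was 41.0, 22.3 and 20.5 kb wide with DMSO and 28.4, 11.2 and 10.7 kb with doxycycline, each replicate narrower than its DMSO counterpart although the groups overlapped. The bases under H3K4me1 peaks within 50 kb did not follow, at 73.2, 64.3 and 61.3 kb with DMSO and 75.8, 59.03 and 61.4 kb with doxycycline, a difference of -0.02 on the log2 scale (adjusted p of 0.837 in limma with the replicate number as a block).

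DDC, the decarboxylase, spans chr7:50458436-50565405 on the minus strand, 107 kb with 10 annotated start sites in 6 windows. H3K4me3 singled out one of them. The window around the inner RefSeq start, chr7:50560071-50562071, held an H3K4me3 peak in 6 of 6 lists, at percentiles of 58.1 to 79.4, and an H3K4me2 peak in 6 of 6. The window around the outer start, chr7:50564405-50566405, held H3K4me3 in 0 of 6 lists and H3K4me2 in 2 of 6, at percentiles of 8.06 and 12.3. H3K4me1 and H3K27ac peaks met both windows in 6 of 6 lists. The sequence of the inner start is the richer in G and C of both runs printed above. The widest H3K27ac peaks were 20.2 to 48.8 kb, and the 4 windows farther into the gene met H3K27ac in 6 of 6 lists as well. The choice of start was the same in both treatments, and the H3K4me3 percentile of DDC was 79.4, 59.1 and 68.1 with DMSO and 58.1, 67.9 and 61.0 with doxycycline, which overlap.

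**Figure D3:**
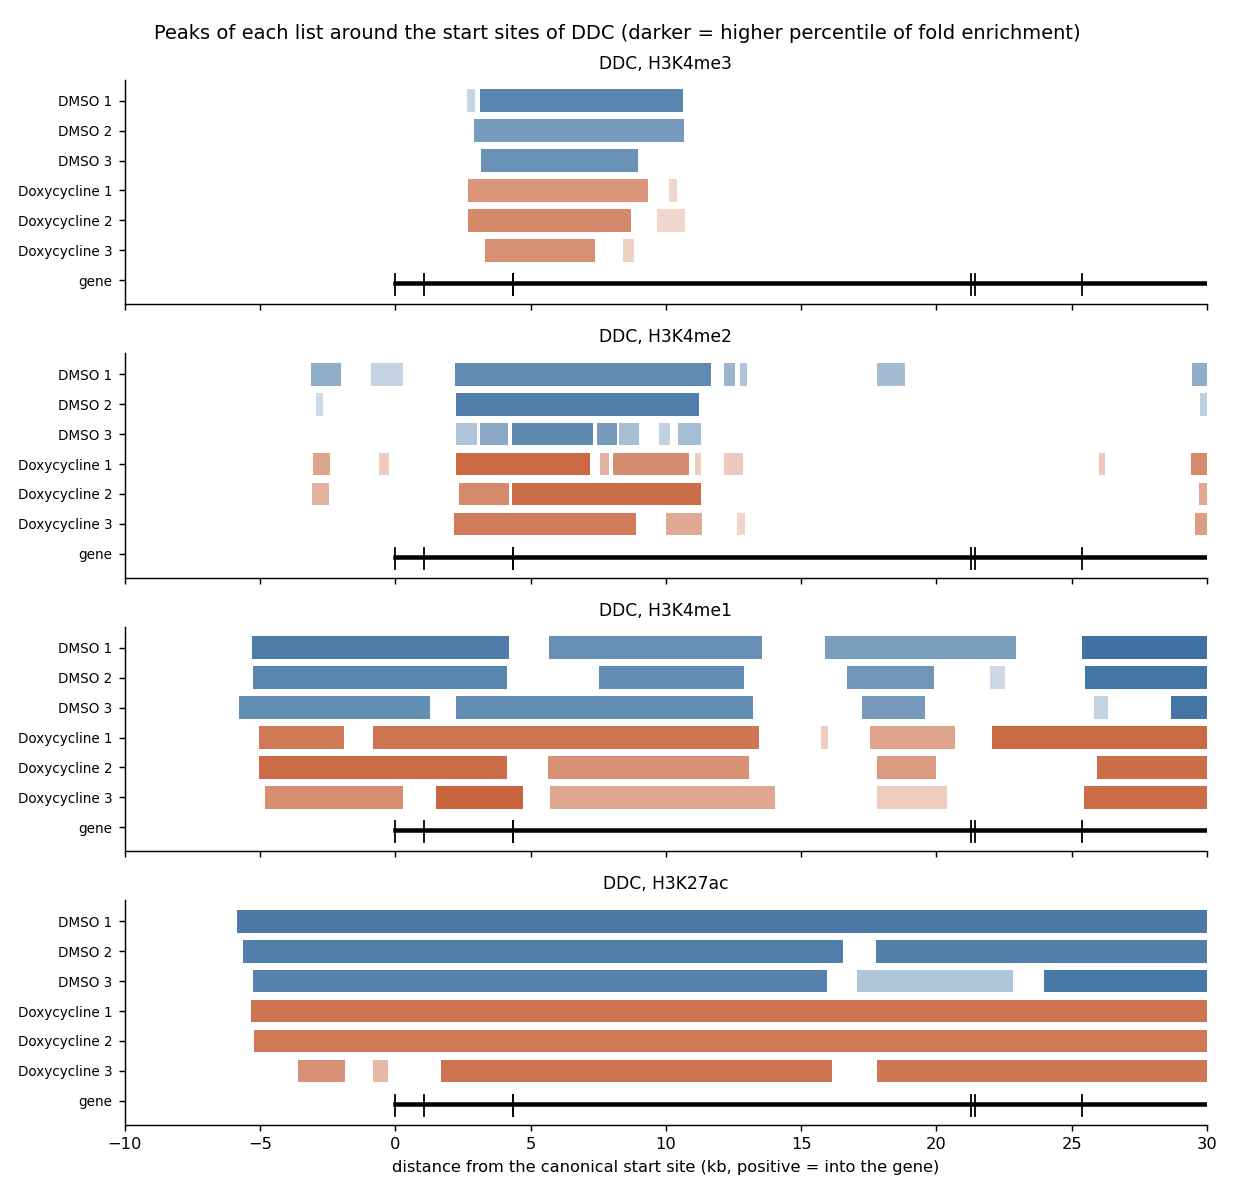
Peaks of each list from 10 kb before to 30 kb after the outer start site of DDC (horizontal axis, distance in kb, positive into the gene), 1 row per list, blue for DMSO and orange for doxycycline, darker for a higher percentile. The ticks on the gene line are annotated start sites. H3K4me3 covers the inner start and not the outer one in any of the 6 lists, while H3K27ac peaks come within 1 kb of both in every list.

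DBH, which makes noradrenaline, spans chr9:133636363-133659329 on the plus strand, with SARDH 4.23 kb downstream. Its H3K27ac peak was 50.4, 52.3 and 38.3 kb wide in the DMSO lists and 54.5, 75.9 and 46.6 kb with doxycycline, so the groups overlapped. H3K27ac lay over 66.1% to 91.2% of the gene and its 50 kb flanks, more than at any of the other 9 genes in every list. An H3K27ac region at the SARDH end, 74.0 kb past the start of DBH, ranked at 77.7, 72.1 and 70.1 with DMSO and 81.3, 82.9 and 81.0 with doxycycline, without overlap. PNMT, the adrenaline enzyme, spans chr17:39667981-39670475 on the plus strand and is only 2.50 kb long, with TCAP, STARD3 and PGAP3 close by. It had H3K4me3 and H3K4me2 in all 6 lists and H3K4me1 of 6.01 to 6.97 kb, but its H3K27ac percentile was 39.5, 56.1 and 1.199 with DMSO and 61.8, 67.4 and 16.8 with doxycycline. The third replicate was the lowest in both treatments, and the groups overlapped.

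GCH1, the first enzyme of BH4 synthesis, spans chr14:54842008-54902826 on the minus strand. Its promoter peaks ranked lower in the doxycycline list of each replicate pair in all 4 active marks, and without overlap in 2. Of all genes, 9.19% were lower without overlap in H3K4me3 and 7.39% in H3K4me1. The share lower in each pair in all 4 marks was not computed. The H3K4me3 percentile of GCH1 was 90.03, 99.04 and 93.8 with DMSO and 53.6, 75.9 and 54.1 with doxycycline, and every doxycycline list lay below every DMSO list. The difference was -33.1 percentile points (SE 9.48, n = 3 per treatment) with an unadjusted p of 0.00183 and an adjusted p of 0.228 in limma, so it did not pass. The width of this peak did not follow, at 2.71, 2.67 and 2.47 kb with DMSO and 2.82, 2.67 and 2.50 kb with doxycycline. The H3K4me1 percentile was 59.6, 74.0 and 47.6 with DMSO and 44.3, 35.1 and 33.1 with doxycycline, also without overlap. The H3K4me2 percentile was 97.0, 98.1 and 81.9 with DMSO and 74.3, 97.6 and 63.0 with doxycycline, which overlap, a difference of -14.1 points (adjusted p of 0.798 in limma, and 0.609 with the replicate block). The H3K27ac percentile was 81.1, 84.0 and 75.7 against 76.4, 72.2 and 68.4, where the first doxycycline list lay within the DMSO range. This difference of -7.93 points had an unadjusted p of 0.0277 and an adjusted p of 0.214 in limma with the block.

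The 2 vesicular transporters differed from each other. SLC18A2 spans chr10:117241093-117279430 on the plus strand, with H3K4me3 at a mean percentile of 80.7, above the median gene. SLC18A1, 38.4 kb long with 9 annotated start sites, had the weakest H3K4me3 of the 10 genes, at a mean percentile of 29.9, which stood at percentile 2.66 of the genes. The H3K4me3 percentile of SLC18A1 was 42.3, 33.1 and 31.9 with DMSO and 31.0, 24.3 and 16.8 with doxycycline, every doxycycline list being lower. Its H3K4me3 peak was 2.90, 1.68 and 0.916 kb wide with DMSO and 1.03, 1.07 and 0.736 kb with doxycycline, and each replicate was narrower. The H3K27ac peak at the promoter of SLC18A2 was 27.4, 13.6 and 3.72 kb wide with DMSO and 2.98, 3.35 and 2.57 kb with doxycycline. Every doxycycline peak was narrower than every DMSO peak, but the bases under H3K27ac peaks within 50 kb were 39.7, 39.8 and 31.4 kb with DMSO and 38.9, 36.9 and 30.6 kb with doxycycline, groups that overlapped. The share of all genes whose widths separate in this way was not computed, and depth differed by treatment. H3K4me1 around SLC18A2 covered 41.9, 39.4 and 39.04 kb with DMSO and 38.99, 34.3 and 34.03 kb with doxycycline, without overlap, and was the only covered length of the 10 genes in the active marks that separated so, where 6.29% of all genes were lower without overlap in H3K4me1. The difference of -0.16 had an adjusted p of 0.972 in limma, and 0.145 with the block.

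SLC6A2, the noradrenaline transporter, spans chr16:55655988-55707645 on the plus strand, with no other protein-coding gene within 50 kb. Its H3K4me3 percentile was 58.1, 86.7 and 51.8 with DMSO and 86.1, 88.7 and 84.9 with doxycycline. The second DMSO list lay within the doxycycline range, and the difference of 21.0 points (SE 9.83, n = 3 per treatment) had an adjusted p of 0.376 in limma. The H3K27ac percentile stayed between 92.8 and 96.5 in all 6 lists. CHGA, at chr14:92923150-92935285 on the plus strand, had H3K4me3 peaks of 5.42 to 11.7 kb and H3K27ac peaks of 32.6 to 50.7 kb. Its H3K27ac percentile was 97.2, 90.5 and 96.2 with DMSO and 92.1, 87.3 and 89.6 with doxycycline, lower in each replicate pair though the groups overlapped. CHGB, at chr20:5911510-5925353 on the plus strand, had narrower peaks. The H3K27ac percentile of CHGB was 98.0, 94.8 and 97.4 with DMSO and 93.5, 93.2 and 87.0 with doxycycline, without overlap, a difference of -5.50 points (SE 1.96, n = 3 per treatment) and an adjusted p of 0.298 in limma. The H3K4me3 percentile of CHGB was 95.4, 69.4 and 90.7 against 60.5, 84.6 and 43.6, which overlap.

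Across the 10 genes, no difference in promoter strength between treatments passed the test. limma on the percentiles called 0 of the 10 genes in H3K4me1, H3K4me2, H3K4me3 and H3K27ac, with or without the replicate number as a block, and 0% of all genes tested in each of these marks and, without the block, in H3K27me3, where no member was tested. At an unadjusted p under 0.05, H3K4me3 had 1 member higher (SLC6A2) and 2 lower (GCH1 and CHGB), H3K27ac had 1 lower (CHGB), and H3K4me1 and H3K4me2 had 0. Over all genes the same threshold was passed by 5.42% higher and 7.16% lower in H3K4me3 and by 8.67% lower in H3K27ac. With the block, it was passed in H3K27ac by 4 of 10 members, all lower (SLC18A1, CHGA, CHGB and GCH1, adjusted p of 0.182 to 0.252), beside 13.0% of all genes. In H3K4me3 with the block it was passed by 1 higher (SLC6A2) and 2 lower (GCH1 and SLC18A1), beside 16.0% of all genes in either direction, and in H3K4me1 and H3K4me2 by 0. The members whose lists did not overlap were 1 lower in H3K4me1 (GCH1), 2 lower in H3K4me3 (SLC18A1 and GCH1) and 1 lower in H3K27ac (CHGB), and 0 higher in any mark. The shares of all genes lower without overlap were 7.39% in H3K4me1, 5.31% in H3K4me2, 9.19% in H3K4me3 and 12.3% in H3K27ac, and those higher were 6.94%, 5.94%, 7.63% and 6.44%. With 10 members, the counts without overlap are near the background. For a single value, an exact two-sided permutation test of 3 lists against 3 cannot go below 0.1.

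The length of the gene and its 50 kb flanks that lay under peaks gave a second readout. Without the block, limma called 0 members in every mark. With it, limma called 3 of 10 members in H3K4me1 (SLC18A1, GCH1 and CHGB), 0 in H3K4me2, 1 in H3K4me3 (SLC18A1) and 1 in H3K27ac (SLC18A1). The shares of all genes called with the block were 16.6% in H3K4me1, 1.00% in H3K4me2, 2.26% in H3K4me3 and 10.5% in H3K27ac, so the counts of members are near the background. H3K27ac covered 33.5, 24.7 and 16.3 kb around SLC18A1 in the DMSO lists and 19.2, 18.7 and 7.42 kb with doxycycline. The groups overlapped, but each replicate was lower than the DMSO sample of the same number. The difference was -0.73 on the scale of log2(covered bases + 1000), with SE 0.39 and an adjusted p of 0.528 in limma without the replicate block, and with SE 0.14 and an adjusted p of 0.0279 with it. With the block, the call held with lists cut to equal length (-0.66, adjusted p of 0.0367) and with each list centred on its median gene (-0.61, 0.0391). H3K4me3 around SLC18A1, which includes the promoter of its neighbour ATP6V1B2, covered 6.27, 5.21 and 3.76 kb with DMSO and 3.97, 3.68 and 2.82 kb with doxycycline. Its difference with the block was -0.43 with an adjusted p of 0.0209 in limma, and 0.0509 with lists of equal length. H3K4me1 covered 37.0, 19.7 and 21.7 kb with DMSO and 29.1, 13.1 and 15.1 kb with doxycycline, -0.46 with an adjusted p of 0.00809 with the block. That call was lost with lists of equal length (-0.21, 0.392) and with centring (-0.28, 0.0836).

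CHGB differed in the other direction in H3K4me1. Peaks covered 21.0, 9.86 and 12.1 kb around it with DMSO and 24.4, 13.6 and 21.7 kb with doxycycline, higher in each replicate pair though the groups overlapped. The difference was 0.47 (adjusted p of 0.748 in limma without the block and 0.0263 with it), and it was 1.06 (0.00265) with lists of equal length and 0.66 (0.00879) with centring. GCH1 had 46.5, 35.3 and 44.7 kb of H3K4me1 with DMSO and 38.3, 26.7 and 38.01 kb with doxycycline. Its difference of -0.30 was called with the block (adjusted p of 0.0187) and lost with lists of equal length (0.242) and with centring (0.353). SLC6A2 had 43.96, 41.9 and 31.4 kb of H3K27ac with DMSO and 61.7, 49.6 and 39.0 kb with doxycycline. Its difference of 0.34 did not pass with the block alone (adjusted p of 0.0573 in limma) and passed with lists of equal length (0.50, 0.0334) and with centring (0.47, 0.0269). With centring and the block, H3K4me3 was also called higher at TH (0.12), DBH (0.16) and SLC6A2 (0.19), and H3K4me1 at DBH (0.25). The shares of all genes called with centring and the block were 11.2% in H3K4me1, 4.30% in H3K4me3 and 11.9% in H3K27ac, beside 2, 4 and 2 of the 10 members. With lists of equal length and the block they were 7.20%, 2.65% and 10.5%, beside 1, 1 and 2 members.

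**Figure D4:**
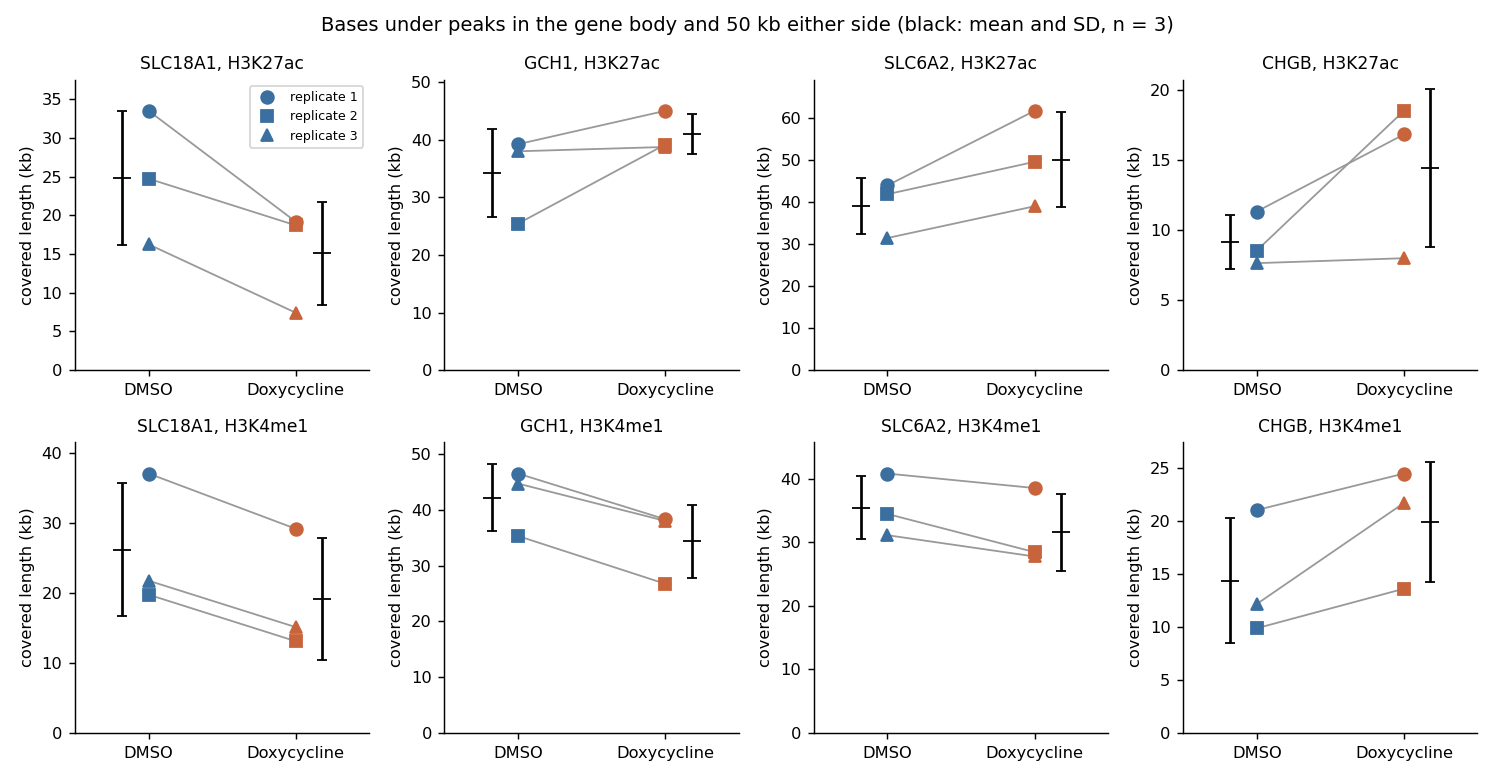
Bases under H3K27ac peaks (top row) and H3K4me1 peaks (bottom row) in the gene body and 50 kb either side, in kb from 0, for SLC18A1, GCH1, SLC6A2 and CHGB. Grey lines join samples with the same replicate number, and black bars give the mean and SD of 3 lists. All 3 lines slope down for SLC18A1 and up for CHGB in both marks.

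These calls with the block stand beside many calls over all genes, whose number and direction depended on the fit. Without the block, an unadjusted p under 0.05 was reached by 1 member in H3K4me3 (SLC18A1, lower, as were 1.94% of all genes) and by 0 in the other marks. The shares of all genes called without the block were 0.0786% in H3K4me1, 0% in H3K4me2, 0% in H3K4me3, 2.11% in H3K27ac and 0% in H3K27me3, where the 3 members with enough covered length were tested. Of all genes with the block, 353 were higher and 2597 lower in H3K4me1, but 1277 and 716 after centring. In H3K27ac they were 452 higher and 1289 lower, but 1070 and 895 after centring. The median gene changed by -0.13 on the log2 scale in H3K4me1 and by 0.45 in H3K27me3.

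Peaks that separated the treatments completely were rare in these loci, as they were over all regions. Peaks of the 6 lists of a mark were merged into regions, and a region was counted as lost or gained when it had a peak in 3 of 3 lists of one treatment and 0 of 3 of the other. Of 152 H3K4me1 regions within 50 kb of a member, 2 were lost and 1 was gained, against 1.45% and 0.313% of all H3K4me1 regions. The lost ones were an intronic region of DDC, chr7:50492022-50493560, with DMSO percentiles of 9.94, 36.7 and 1.02, and a region 13.0 kb upstream of GCH1, chr14:54915073-54916660, with DMSO percentiles of 52.3, 8.92 and 87.4. The gained one lay 18.4 kb past the start of CHGB, downstream of the gene at chr20:5929102-5930787, with doxycycline percentiles of 93.7, 72.3 and 96.2. With lists of equal length, 0 H3K4me1 regions near the members were lost and 4 gained. At a q of 0.001, 0 were lost and 1 was gained. No region was lost or gained among 166 of H3K4me2, 46 of H3K4me3, 102 of H3K27ac and 14 of H3K27me3. Over all regions the lost and gained shares were 0.291% and 0.180% in H3K4me2, 0.893% and 0.450% in H3K4me3, 2.70% and 0.600% in H3K27ac, and 0.0386% and 0.420% in H3K27me3.

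**Figure D5:**
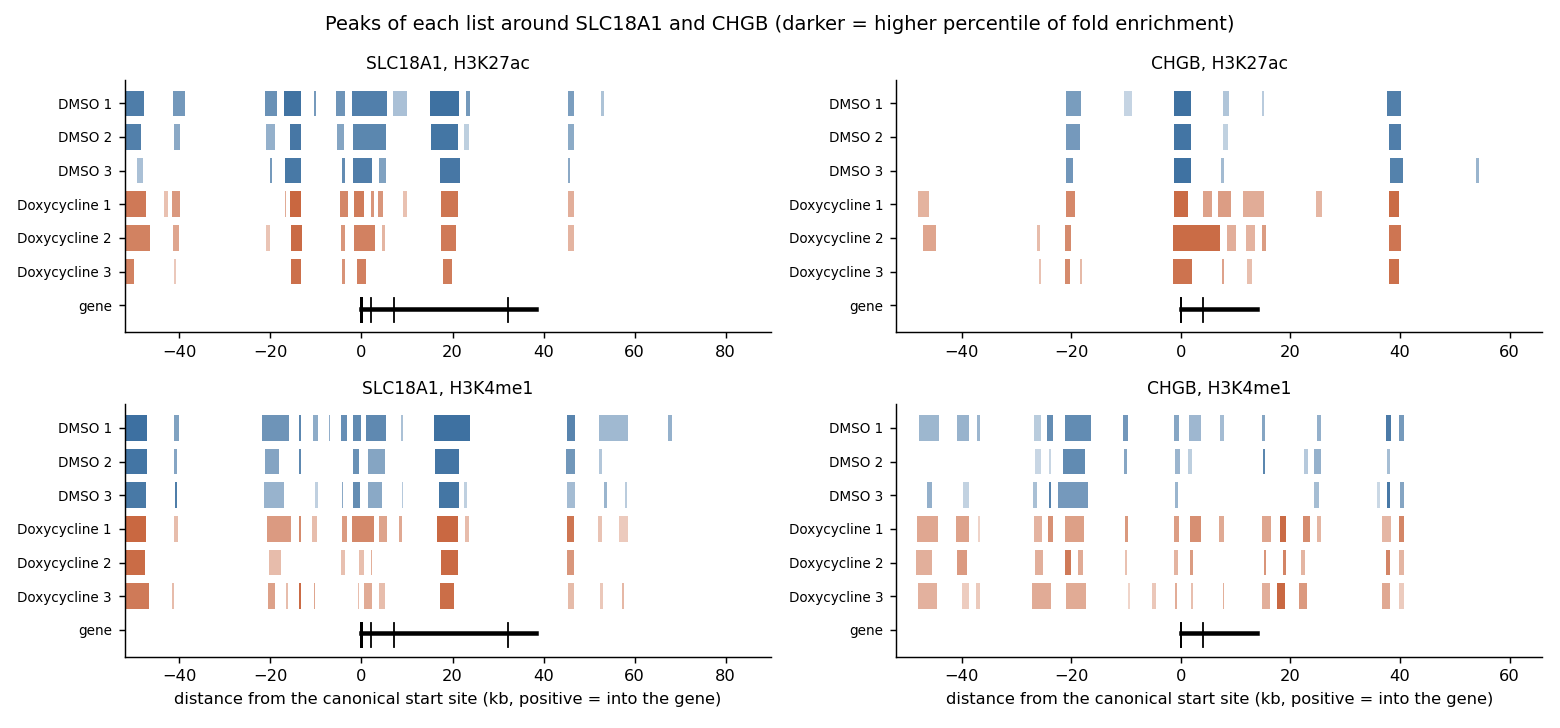
Peaks of each list around SLC18A1 (left) and CHGB (right), H3K27ac above and H3K4me1 below, against distance from the start site in kb (positive into the gene), 1 row per list, blue for DMSO and orange for doxycycline, darker for a higher percentile. The black line is the gene and its ticks are start sites. H3K27ac about 18.3 kb into SLC18A1 is paler with doxycycline, and an H3K4me1 peak 18.4 kb past the start of CHGB is found with doxycycline alone.

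Among regions with a peak in all 6 lists, strength could be compared list by list. In H3K27ac, 8 of 44 regions near the members ranked lower in every doxycycline list than in every DMSO list and 2 ranked higher, where the shares of all such regions were 19.5% and 5.91%. Near SLC18A1, a region 18.3 kb into the gene ranked at 98.1, 93.6 and 92.0 with DMSO and 84.7, 80.6 and 78.7 with doxycycline, and one 52.4 kb upstream at 86.9, 84.4 and 88.0 against 81.5, 74.6 and 75.4. The others that were lower lay near SLC18A2, SLC6A2, CHGA and GCH1, and at the promoter of CHGB. The widest gap was 41.1 kb upstream of SLC6A2, chr16:55613959-55615752, with percentiles of 76.5, 61.5 and 67.0 against 47.6, 37.2 and 15.7. H3K4me1 at the same place went from 89.2, 92.4 and 86.8 to 51.6, 29.7 and 75.8. In H3K4me1, 3 of 71 regions were lower and 2 higher, with shares over all regions of 10.4% and 5.21%. In H3K4me3, 2 of 25 were lower, the promoters of SLC18A1 and GCH1, and 2 were higher, the FIGNL1 promoter near DDC and a region 50.3 kb upstream of PNMT, with shares of 9.03% and 6.67%.

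H3K27me3 lay near 3 of the genes in both treatments. Upstream of SLC18A2, a region over the start of KCNK18, chr10:117188464-117199822, had peaks in all 6 lists at percentiles of 60.4 to 96.6. Downstream of SLC6A2, a 34.05 kb region, chr16:55715848-55749894, was marked in all 6 lists at percentiles of 78.1 to 94.4. PNMT was flanked on both sides. A 45.6 kb region that holds NEUROD2 lay upstream, at percentiles of 98.3 to 99.6, and a 37.7 kb region over PGAP3 and ERBB2 lay downstream, at 84.0 to 98.8. None of these regions reached the promoter of the member. No H3K27me3 peak lay within 50 kb of TH, SLC18A1, GCH1, CHGA or CHGB in any list, and DBH had 1 peak of 0.194 kb in 1 list. The bases under H3K27me3 around PNMT were 43.4, 32.2 and 25.1 kb with DMSO and 46.2, 42.8 and 28.8 kb with doxycycline, an overlap. The fragment length that the caller used for H3K27me3 was 256, 112 and 105 bases in the DMSO lists and 265, 280 and 108 with doxycycline, and its part in these lengths was not tested.

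H3K4me1 regions around the genes were also sorted by the marks they shared, taking only peaks in all 3 lists of a treatment. With DMSO, 90 regions lay within 50 kb of the 10 genes: 33 met H3K4me3, 34 had H3K27ac without H3K4me3 (active), 21 had neither H3K27ac nor H3K27me3 (primed) and 2 had H3K27me3 (poised). With doxycycline the 92 regions were 33, 39, 17 and 3. All poised regions were at PNMT. CHGB had 3 primed regions with DMSO and 6 with doxycycline, and SLC18A1 had 2 and 1. These counts rest on 1 set of calls per treatment and have no replicate spread.

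Other genes of the pathway were read from lists. H3K27ac was at the promoter in all 6 lists for 6 of 6 genes of BH4 synthesis and recycling, led by PTS, PCBD1 and QDPR, for 8 of 8 genes of vesicle filling and release, led by VAMP2 and SYT1, and for 9 of 9 noradrenergic regulators. It was at 7 of 9 genes of granule biogenesis and peptide processing, with CYB561, which supplies electrons to DBH, at a mean percentile of 99.6, and with the prohormone convertases PCSK1 and PCSK2 at 0 lists. Of the amine breakdown genes, 4 of 6 had it, AKR1B1 and MAOA among them, and MAOB had none. Only 2 of 8 genes of other amine neurons, CHAT and SLC18A3 of the cholinergic locus, had it in all 6 lists. The serotonin and dopamine transporters SLC6A4 and SLC6A3 had 0. One promoter separated the treatments: HAND2, a regulator of noradrenergic identity, had H3K4me2 in 0 of 3 DMSO lists and 3 of 3 doxycycline lists, at percentiles of 74.5, 10.1 and 28.3. It was found by reading every listed gene in every mark, and 0.0300% of all genes separated in H3K4me2 in either direction. HAND2 had H3K4me3 and H3K27ac promoter peaks in all 6 lists, with H3K27ac at a mean percentile of 99.9. In limma without the block, promoter strength called 0 genes of these 6 lists in any mark, with 1 gene in H3K4me1, 1 in H3K4me2, 3 in H3K4me3 and 3 in H3K27ac at an unadjusted p under 0.05. Of all genes, 5.42% were higher and 7.16% lower at that threshold in H3K4me3, and 8.67% lower in H3K27ac. Covered length called 1 gene, CADPS, which primes dense-core vesicles for release, in H3K27ac (-1.46, SE 0.22, adjusted p of 0.0176), beside 2.11% of all genes. With the block, H3K27ac was called lower at CADPS, SNAP25 (-0.87), MAOA (-0.49), ALDH2 (-0.56) and TPH2 (-1.61) and higher at VGF, a granule protein (0.75). H3K4me1 was called lower at 2 genes each of the BH4, breakdown, vesicle and other amine lists and at 3 noradrenergic regulators, GATA3 (-0.29) among them, and higher at none. The H3K4me3 calls included VGF (0.43) and CYB561 (0.27), both higher, and MAOA (-0.50) and ATP6V1B2 (-0.25), both lower. ATP6V1B2 lies 14.2 kb from SLC18A1, so their windows overlap and its call shares bases with the H3K4me3 call of SLC18A1. The block called 10.5% of all genes in H3K27ac, 16.6% in H3K4me1 and 2.26% in H3K4me3, most of them lower in H3K27ac and H3K4me1. Whether the calls of the listed genes hold with lists of equal length or with centring was not tested.

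The gene most like each member was sought by the Euclidean distance over the promoter percentiles of the 30 lists. TH lay nearest COLEC11 (26.0), SLC6A2 nearest PTPA (27.3), CHGA nearest BCL9L (32.6), DBH nearest SAPCD2 (32.6) and DDC nearest RUSC1 (40.0). GCH1 lay nearest WASF2 (53.6), SLC18A2 nearest PSMB6 (51.2) and CHGB nearest CCDC126 (48.6). PNMT, nearest KIRREL2 (64.5), and SLC18A1, nearest CATSPERE (81.5), had no gene as close. Within the group, TH and DBH were each other's nearest member, at 43.4.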

How the data were processed

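The rule for the members is a list of gene names and uses no measured value, but the members and lists were chosen with earlier results of these data known. For the 30 MACS2 peak lists, the authors aligned reads with Bowtie2 to hg38, kept a mapping quality of 30 with SAMtools and called peaks per sample against input. The submitters' processing notes also name deepTools. Per the file headers the caller was MACS 2.1.1.20160309, the 18 H3K4me1, H3K27ac and H3K27me3 lists were broad (q 0.05, linking 0.1) and the 12 H3K4me2 and H3K4me3 lists were narrow with a p threshold of 1e-05, where the methods state q. Deposited columns hold the pileup signal (coverage at the summit), the −log10 p-value and q-value, and the ratio of fold enrichment over input. The third replicate of each treatment has the input read totals of the first, so 4 inputs served 30 lists.

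Genes and start sites were those of GENCODE 44, and a peak met a window by 1 base. Promoter strength was the percentile of the highest fold enrichment within 1 kb of a start site. Covered length was log2(covered bases + 1000) over genes with a mean of at least 1000 bases. Both were tested with limma 3.58.1 in R 4.3.3 with Benjamini-Hochberg adjustment over all genes. Only the fit without the replicate block was checked on simulated data, which were drawn with independent noise. The fits with the block were not checked in this way. Python 3.11.15, numpy 2.4.6, pandas 2.3.3, scipy 1.17.1 and matplotlib 3.10.9 did the rest. Deviations of samples with the same replicate number correlated at 0.109 to 0.624 in every pair of H3K4me1, H3K4me2, H3K4me3 and H3K27ac. In H3K27me3 the lowest was -0.201. The former exceed the limit set, 0.1, so samples of the same number were treated as pairs in these 4 marks. Correlations between samples of different numbers were not compared, so the pairing is an assumption of the block. The pairing comes from the data, since the labels give only the numbers. All 10 members are named; other genes are neighbours within 50 kb, the most similar gene, and up to 4 per list, chosen by a separating promoter or a limma call first and then by H3K27ac percentile. Some listed genes are not reported here by name. Values without overlap, start site windows, width ranks and the fits that join the replicate block with equal length or centring were added after the data had been seen. Alternatives were another threshold, list length, window, overlap, scale, pseudocount, filter and leaving out each list.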

Additional observations from a re-analysis of the deposited data

How the results depend on the processing

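Leaving out each list in turn kept all 10 members present in the 4 active marks and, in fits without the replicate block, called 0 members, while the other counts moved. The calls with the block were not refitted with a list left out. Lost regions near the members ranged from 2 to 5 in H3K4me1, 0 to 1 in H3K4me2, 0 to 1 in H3K4me3 and 0 to 2 in H3K27ac, and gained ones from 1 to 2, 0 to 3, 0 to 4 and 0 to 3, and 0 to 2 in H3K27me3. Without the third doxycycline list, 1 member promoter (PNMT) counted as gaining H3K27me3, against 0 otherwise. Genes called for covered length ranged from 1 to 442 in H3K4me1, 0 to 43 in H3K4me2, 0 to 12 in H3K4me3 and 63 to 392 in H3K27ac, and for strength from 0 to 1 in H3K27ac. With a 50% overlap, H3K4me1 was present at 6 members. At a q of 0.001, H3K4me1 was present at 7 members and H3K27ac at 9. With lists of equal length, H3K4me1, H3K4me2 and H3K27ac were present at 9 members each. At the canonical start alone, H3K4me1 and H3K4me3 were present at 9 members and H3K4me2 at 8. Lost H3K4me1 regions were 0 at a q of 0.001, 0 with lists of equal length and 1 within 10 kb, and with equal length 4 H3K4me1 and 2 H3K27ac regions were gained.

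For strength over all genes, quantile-normalised log2 fold enrichment called 1 in H3K4me1 and 205 in H3K27ac, ranks of −log10 q called 8 in H3K4me3 and 48 in H3K27ac, and the canonical start and a q of 0.001 called 2 each in H3K27ac. For covered length, centring called 54 genes in H3K4me1, 136 in H3K4me3 and 675 in H3K27ac. Gene bodies alone gave 0 and 73 (H3K4me1, H3K27ac), a q of 0.001 gave 0 and 156, equal length gave 40, 1 and 10 (H3K4me1, H3K4me2, H3K4me3), and no filter gave 0, 9, 64 and 1 (H3K4me1, H3K4me3, H3K27ac, H3K27me3).

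The replicate block called 2950 genes in H3K4me1 (3 members), 175 in H3K4me2, 382 in H3K4me3 (1 member) and 1741 in H3K27ac (1 member), and changed no other member's call. The replicate block with centring called 1993 (2 members), 134, 728 (4 members) and 1965 (2 members), and with equal length 1234 (1 member), 263, 448 (1 member) and 1729 (2 members). Of 1112 values of single members under alternatives, 0 called values reversed, 106 uncalled ones changed sign, and 17 passed the threshold, 0 of them outside the replicate block. Causes were not tested. Peak lists limit the precision, since bases below the threshold count as 0.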
